A study of Mus musculus with 12 samples.

Results

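The BCL2 family genes are the genes whose proteins decide at the outer mitochondrial membrane whether a cell lives or dies by apoptosis. Of the 54532 genes in the count table, 10 were taken by their symbols: the 3 survival genes Bcl2, Bcl2l1 (BCL-XL) and Mcl1, and 7 death-promoting genes, namely the pore formers Bax and Bak1 and the BH3-only genes Bid, Bik, Bmf, Bcl2l11 (BIM) and Pmaip1 (NOXA). The rule used symbols and no expression value.

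RNA-seq was performed on the liver and the subcutaneous fat of male mice that had received adeno-associated virus serotype 8 (AAV8) through the tail vein at 10 weeks of age and were then kept on a low-fat diet for 16 weeks. The hHKDC1 OE mice received the vector with full-length human HKDC1, a hexokinase domain protein, under the control of the hepatocyte-specific thyroxin-binding globulin promoter, and the null mice received AAV8 with the same promoter and no HKDC1. Thus fat was a tissue in which the promoter is not meant to be active, and no mouse went without a virus. Each tissue and vector was represented by 3 libraries, and the series by 12. The free-text descriptions call replicates 2 and 3 of each hHKDC1 OE group knockouts, while their titles and treatment labels say overexpression, and they were grouped by the latter. For fat, the study describes the samples of a group as separate mice. For liver, the sources used here do not state it, and p-values there measure the spread between these libraries, whatever its source.

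Each library held between 15496019 and 19954971 counted fragments. Mouse Hkdc1 had between 0 and 8 counts in every library, which checks nothing on the vector because the human transgene is a separate sequence that is not a row of the mouse table. In liver, the summed level of 10 hepatocyte markers was 113617 to 119535 CPM in null and 70219 to 93049 CPM in hHKDC1 OE libraries (counts relative to the library's normalised total), and in fat the summed level of 8 adipocyte markers was 20496 to 30599 CPM, each on the scale of its own tissue. The fat libraries differed in composition. Of the hHKDC1 OE fat libraries, replicates 1 and 3 carried high levels of B and T cell markers, with replicate 2 between them and the null libraries. The members' differences in fat are therefore given with and without replicates 1 and 3.

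In healthy cells, the survival proteins hold Bax and Bak1 in check and bind the BH3-only proteins. BH3-only genes are raised by different stresses, and their proteins either block the survival proteins or switch on the pore formers. The pores then release cytochrome c, which with Apaf1 activates caspases. Hepatocytes are known to depend on Mcl1 and Bcl2l1, and lymphocytes on Bcl2, with Bcl2l11 as its main opponent there.

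Promoters are shown for members whose libraries separated by vector in a tissue, namely Bcl2, Bcl2l11 and Bmf in fat and Bcl2l1 in liver. Pmaip1, which separated in fat too, is not shown. The windows are the 250 bases upstream of the RefSeq transcript start nearest to the gene's start in the count table, in build GRCm38.p6, 5′ to 3′ on the gene's own strand. Capitals mark matches on either strand to the GC box (GGGCGG) or the FOXO core (GTAAACA). The window of Bcl2 is chr1:106714291-106714540, minus strand. That of Bcl2l11 is chr2:128125788-128126037, plus strand. Those of Bmf and Bcl2l1 are chr2:118549687-118549936 and chr2:152831729-152831978, both on the minus strand.
Bcl2: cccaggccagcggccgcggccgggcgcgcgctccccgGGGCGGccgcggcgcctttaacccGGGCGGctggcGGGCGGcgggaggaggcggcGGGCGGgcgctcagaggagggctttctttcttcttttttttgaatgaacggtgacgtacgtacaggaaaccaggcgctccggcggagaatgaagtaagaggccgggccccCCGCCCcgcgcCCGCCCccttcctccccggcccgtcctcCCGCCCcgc
Bcl2l11: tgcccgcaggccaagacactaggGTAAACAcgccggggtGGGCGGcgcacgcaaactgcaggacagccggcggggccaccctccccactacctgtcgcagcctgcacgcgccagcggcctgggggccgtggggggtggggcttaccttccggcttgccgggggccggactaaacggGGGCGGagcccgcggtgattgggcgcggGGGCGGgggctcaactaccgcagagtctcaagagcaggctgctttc
Bmf: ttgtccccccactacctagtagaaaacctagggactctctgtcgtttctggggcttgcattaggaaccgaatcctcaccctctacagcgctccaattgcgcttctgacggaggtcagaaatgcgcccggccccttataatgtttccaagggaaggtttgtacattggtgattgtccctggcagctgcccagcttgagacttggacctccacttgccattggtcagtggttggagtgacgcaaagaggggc
Bcl2l1: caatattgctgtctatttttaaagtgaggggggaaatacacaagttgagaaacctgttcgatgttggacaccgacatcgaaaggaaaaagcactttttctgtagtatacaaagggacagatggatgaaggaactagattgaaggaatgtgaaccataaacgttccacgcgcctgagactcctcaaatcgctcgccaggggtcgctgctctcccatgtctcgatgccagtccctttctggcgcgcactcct

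The Bcl2 window held 7 GC boxes, and that of Bcl2l11 held 3 GC boxes and 1 FOXO core, 227 bases before the start. Neither motif occurred in the windows of Bmf and Bcl2l1, which also lacked the E-box (CACGTG) and the TATA box (TATAAA). Among 32851 mouse promoter windows of the same length, 32.7% held a GC box, 3.17% a FOXO core, 6.02% an E-box and 12.4% a TATA box. RefSeq windows were used for 8 of the 10 genes, Pmaip1 and Bik being the others. Among those not printed, Bid held 3 GC boxes, Bax 2 GC boxes and 1 E-box, Mcl1 1 GC box, and Bak1 none of the motifs.

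Levels between the genes were compared on the deposited FPKM scale, which divides fragments by gene length. Mcl1, whose short-lived protein must be made continuously, was the highest of the 10 genes in all 4 groups. In null fat Mcl1 stood at 44.9 ± 3.52 FPKM (SD, n = 3), and in null liver at 37.9 ± 1.85 FPKM (SD, n = 3). Bcl2l1 was next in both null groups, at 11.2 ± 2.67 FPKM in fat and 13.3 ± 1.34 FPKM in liver (SD, n = 3 each). In neither tissue did the Bcl2l1 range separate from that of Bax, at 8.37 ± 1.60 FPKM in null fat and 10.9 ± 2.48 FPKM in null liver.

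Further down the order, the tissues parted. In null fat, Bak1 came next at 8.08 ± 0.192 FPKM, and its range overlapped that of Bax. Bid, which caspase-8 cleaves to link death receptors to the mitochondria, was at 2.97 ± 0.427 FPKM, Bcl2 at 2.05 ± 0.160 FPKM and Bmf at 1.54 ± 0.0562 FPKM, with no overlap between neighbours. The lowest 3 were Bcl2l11, Bik and Pmaip1, at 0.850, 0.723 and 0.184 FPKM, of which the first and the second overlapped. In null liver, Bid and Bak1 were level at 5.72 FPKM each, and Bik and Bmf followed at 1.80 and 1.75 FPKM with ranges that overlapped. Bcl2l11 stood at 1.07 ± 0.0534 FPKM. Bcl2 in null liver was at only 0.245 ± 0.0882 FPKM, and Pmaip1 at 0.129 ± 0.115 FPKM was not separate from it.

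**Figure D1:**
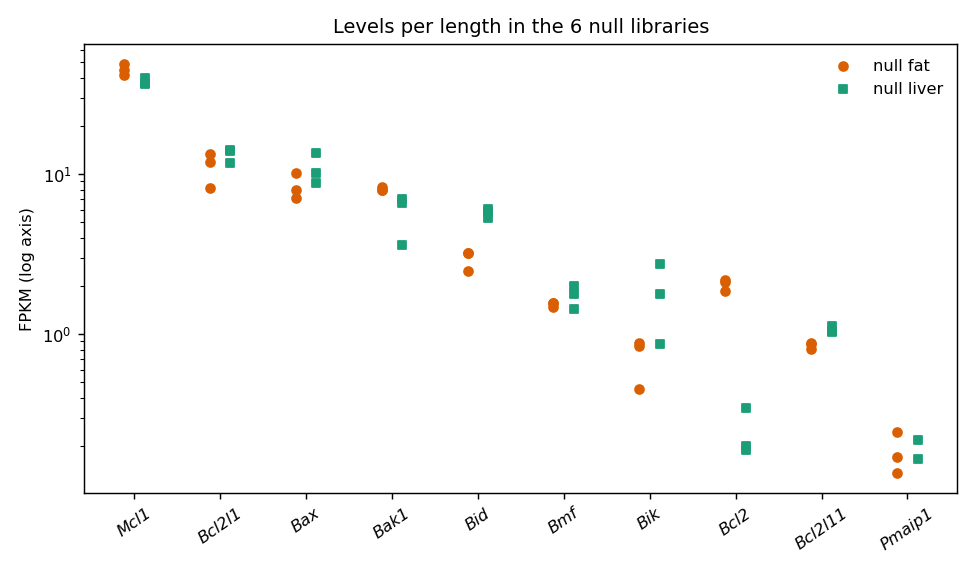
FPKM (log axis) of the 10 BCL2 family genes in the 3 null fat libraries (circles) and the 3 null liver libraries (squares), each point 1 library and genes ordered by their mean over the 6. Mcl1 is highest in both tissues, Bcl2 lies apart between the tissues, and the null liver library with 0 counts of Pmaip1 cannot be drawn on a log axis.

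The order was similar but not identical in the hHKDC1 OE groups. In hHKDC1 OE fat, Mcl1 was at 54.7 ± 10.9 FPKM, with a range apart from the next gene's. Bax came second at 12.6 ± 3.996 FPKM, and Pmaip1 moved from the lowest place to the seventh at 2.77 ± 2.12 FPKM. The ranges of Bax and Pmaip1 overlapped that of the gene next below. In replicate 2 alone Pmaip1 was still the lowest, at 0.583 FPKM, and Bax at 8.44 FPKM was below Bcl2l1 and Bak1, at 9.77 and 8.59 FPKM. In hHKDC1 OE liver, Mcl1 was at 42.9 ± 7.53 FPKM, Bax second at 11.2 ± 2.83 FPKM, and Bcl2 the lowest at 0.149 ± 0.0559 FPKM, a level that overlapped Pmaip1 at 0.207 ± 0.0438 FPKM.

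Null fat was then compared with null liver to learn how the family differs between the tissues without the transgene. Of all 15259 genes tested, 64.3% passed (edgeR quasi-likelihood test, Benjamini-Hochberg adjusted p under 0.05), with 33.8% of the tested genes higher and 30.5% lower in fat. Of the 10 members, Pmaip1 fell under the count filter, and 3 of the other 9 passed. Bcl2 was higher in fat, and Bid and Bik were lower. The median log2 difference was -0.31 over the 9 members and 0.09 over all genes. Skeletal muscle markers summed to 20179 and 24279 CPM in null fat replicates 1 and 2, near the adipocyte sums of 22430 and 30599 CPM, and to 562 CPM in replicate 3. All 8 of these muscle markers and all 6 endothelial markers were called higher in null fat. Without replicates 1 and 2, a choice made after seeing these sums, Bcl2 (3.13) and Bid (-0.84) still passed and Bik (-1.12) did not. Samples of bulk tissue cannot tell fewer cells of a type from less RNA per cell, which holds for every comparison here.

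Bcl2, the founding survival gene, showed the difference with the highest fold among the members. On a CPM scale normalised over the 6 null libraries, it was at 16.02, 18.5 and 18.4 CPM in fat and at 1.66, 3.11 and 1.80 CPM in liver. The groups stayed far apart, and the log2 difference was 3.01 ± 0.28 (SE), about 8.05-fold in the group means (adjusted p = 4.8e-05 by edgeR). The deposited Bcl2 counts behind the liver values were 20, 36 and 22 fragments.

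Bid was at 10.6, 8.44 and 10.6 CPM in null fat and at 18.1, 20.2 and 21.2 CPM in null liver. All liver libraries were above all fat libraries, with a log2 difference of -1.004 ± 0.17 (adjusted p = 0.0013 by edgeR). Bik was at 0.675, 1.34 and 1.24 CPM in null fat and at 1.33, 2.76 and 4.35 CPM in null liver. For Bik the groups touched, and its log2 difference of -1.37 ± 0.53 passed the threshold barely (adjusted p = 0.049997). It rested on 16 to 53 counts per library, and it was lost on scaling by DESeq2's method (adjusted p = 0.054), without the filter on low counts (0.065) and when any of 5 of the 6 libraries was left out.

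The remaining members did not pass. Mcl1 differed by 0.19 ± 0.13, Bak1 by 0.44 ± 0.26, Bmf by -0.24 ± 0.21, Bcl2l1 by -0.31 ± 0.20, Bcl2l11 by -0.38 ± 0.20 and Bax by -0.44 ± 0.23 on the log2 scale. Among these, Bak1 was higher in every fat library and Bcl2l11 lower in every fat library, as against 71.6% of all genes whose groups did not overlap either way. The scaling mattered here. By library size alone, the median of all genes was 0.98 in place of 0.09, and with it Bcl2, Bcl2l1, Mcl1, Bak1 and Bmf passed as higher while Bid and Bik did not pass. The share of all genes that passed as higher by library size alone is not given here, so these members are not set against it. Relative to the median of all genes, Bcl2 differed by 2.92 under both scalings, Bid by -1.09, and Bik by -1.46 and -1.47.

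Other genes of the pathway were taken as lists. Among the genes that act after the pores open, 7 of 10 passed, a share near the 64.3% of all genes. Casp6, a caspase gene, was lower in fat by 1.51 on the log2 scale, and Cycs (cytochrome c), Endog and Aifm1, all mitochondrial proteins with a role in respiration or DNA breakdown, fell by 0.68, 1.90 and 2.03. Apaf1 was higher in fat by 1.65. Of the other BCL2 family genes, 8 of 13 could be tested and 3 passed, all higher in fat: the survival gene Bcl2l2 (BCL-W) by 1.27, Bcl2l13 by 1.03, and Bcl2l10, which had 25, 32 and 44 counts in fat and 0 in each liver library and was tested only because of its counts in fat.

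Among death receptor genes, 3 were higher in fat, 2 lower and 4 did not pass, a share near the 64.3% of all genes that passed. Tnfrsf10b, the receptor of the death ligand TRAIL, was higher by 3.93 and its ligand Tnfsf10 by 1.48, while Casp8 was lower by 0.67. Tnfrsf10b had 7, 5 and 2 counts in null liver and 141, 135 and 171 in null fat, and it too was tested only because of its counts in fat. Of 9 genes of the p53 response, 4 were higher and 1 was lower, as against 33.8% and 30.5% of all genes. None of the 6 inhibitor of apoptosis genes and none of the 3 VDAC genes, which encode channels of the outer mitochondrial membrane, passed. At an unadjusted p under 0.05, reached by 67.8% of all genes, there was 1 inhibitor of apoptosis gene, Xiap, and no VDAC gene.

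In subcutaneous fat, hHKDC1 OE was compared with null. No gene passed at an adjusted p under 0.05 with edgeR's quasi-likelihood test (0% of 16380 genes tested), and so no member did. At an unadjusted p under 0.05 there were 17.7% of all genes, and with DESeq2 1446 genes passed, Pmaip1 being the member among them. The members leaned to higher values in hHKDC1 OE fat. Of 10, 9 had a log2 fold change above 0, against 46.1% of all genes, and this held for all 7 death-promoting genes. The median log2 fold change was 0.52 over the members and -0.05 over all genes. For 4 members the hHKDC1 OE libraries were all higher, as against 12.5% of all genes, and the same 4 had an unadjusted p under 0.05, as against 11.3% of all genes higher at that level. Pmaip1 is 1 of these 4, and it was tested because of its counts in hHKDC1 OE fat, since only 2 null libraries reached the filter's minimum of 0.55 CPM where 3 libraries had to. Without hHKDC1 OE replicates 1 and 3, 7 of 10 members and 6 of the 7 death-promoting genes lay above 0, against 45.5% of all genes, and the members' median was 0.07. These counts are a description and carry no test.

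Pmaip1, a BH3-only gene that p53 and other stress signals raise, had the widest gap. It was at 0.486, 0.620 and 0.856 CPM in the null libraries and at 11.0, 2.05 and 18.3 CPM in hHKDC1 OE replicates 1, 2 and 3. All hHKDC1 OE libraries were above the null libraries, with replicate 2 far below the other two. The log2 fold change was 3.98 ± 0.81 (SE; unadjusted p = 0.0016, adjusted p = 0.133 by edgeR). The counts were 8, 10 and 16 fragments against 232, 42 and 298.

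Bcl2 was at 23.1, 26.5 and 26.3 CPM in null fat and at 48.7, 30.6 and 47.3 CPM in hHKDC1 OE fat. Replicate 2 of hHKDC1 OE lay close above the null libraries, with the other two well above. Its log2 fold change was 0.74 ± 0.21 (unadjusted p = 0.0097, adjusted p = 0.161 by edgeR). Bcl2l11, a BH3-only gene that binds all the survival proteins, was at 9.42, 9.67 and 8.56 CPM in null fat and at 18.5, 9.68 and 21.5 CPM in hHKDC1 OE fat. Its groups did not overlap by the narrowest of margins, since replicate 2 was level with null replicate 2. The log2 fold change was 0.84 ± 0.32 (unadjusted p = 0.0317, adjusted p = 0.242 by edgeR).

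Bmf, a BH3-only gene tied to loss of attachment, had a different shape. It was at 11.2, 10.7 and 10.9 CPM in null fat and at 21.4, 16.6 and 13.8 CPM in hHKDC1 OE fat, where replicate 2 was the middle value. For Bmf the log2 fold change was 0.66 ± 0.22 (unadjusted p = 0.0205, adjusted p = 0.209 by edgeR). An exact two-sided permutation test of the 3 libraries against 3 gave 0.1 for each of these 4 genes, the smallest p this design allows. Any gene whose groups do not overlap gets this value, so it adds nothing to the lack of overlap.

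**Figure D2:**
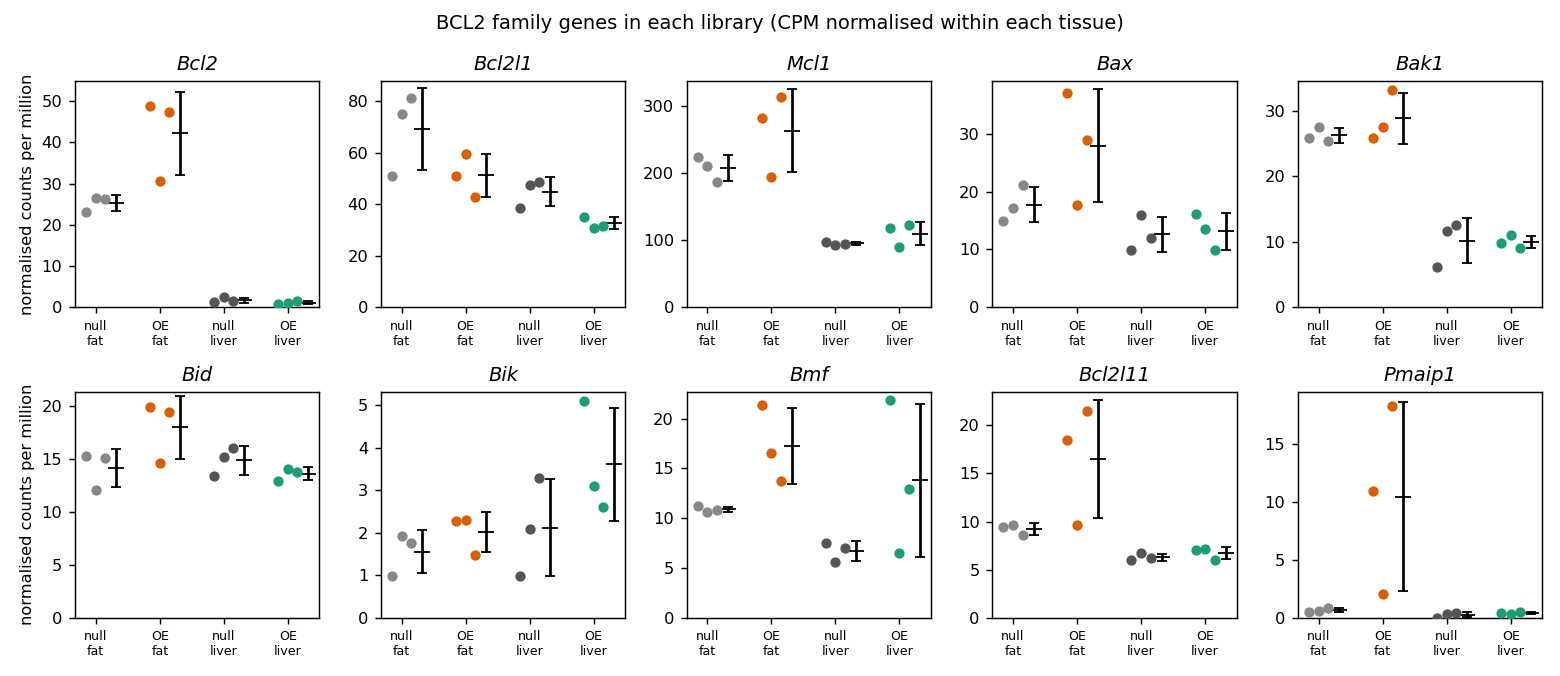
Normalised CPM (linear axes from 0) of each of the 10 genes in the 12 libraries, replicates 1 to 3 from left to right, with the mean ± SD (n = 3) beside each group; values are scaled within each tissue, so levels are to be compared within fat or within liver. In fat, Pmaip1, Bcl2, Bcl2l11 and Bmf do not overlap between the vectors, and in liver Bcl2l1 does not.

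For the pore formers, Bax was at 15.02, 17.2 and 21.1 CPM in null fat and at 37.2, 17.7 and 29.1 CPM in hHKDC1 OE fat, so that replicate 2 fell inside the null range (log2 fold change 0.66 ± 0.29, adjusted p = 0.299 by edgeR). Bak1 had a log2 fold change of 0.14 ± 0.16, the smallest among the members. Of the BH3-only genes, Bid had 0.34 ± 0.21 and Bik 0.38 ± 0.43, with groups that overlapped. Among the survival genes, Mcl1 was at 224, 211 and 187 CPM in null fat and 282, 194 and 314 CPM in hHKDC1 OE fat, a log2 fold change of 0.34 ± 0.21. Bcl2l1 was the member with a value below 0, at 51.1, 75.0 and 81.4 CPM in null fat and 51.0, 59.6 and 42.9 CPM in hHKDC1 OE fat (log2 fold change -0.43 ± 0.22, adjusted p = 0.341 by edgeR).

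Lymphocyte markers were highest in hHKDC1 OE replicates 1 and 3, as were Pmaip1, Bcl2, Bcl2l11, Bax, Mcl1 and Bid. Bmf, Bik, Bak1 and Bcl2l1 did not have that order. The summed level of 10 B cell markers, Cd79a and Ms4a1 among them, was 2.61, 2.48 and 4.33 CPM in null fat and 1042, 59.5 and 775 CPM in hHKDC1 OE replicates 1, 2 and 3. That of 10 T cell markers was 9.06, 9.30 and 18.1 CPM against 702, 53.5 and 805 CPM. In null fat 1 or 2 of the B cell markers were at 0 in each library, and none was in hHKDC1 OE fat. All 20 lymphocyte markers were higher in hHKDC1 OE fat with no overlap and at an unadjusted p under 0.05, although none passed after adjustment. The summed level of 8 macrophage markers ranged from 206 to 447 CPM in null and from 615 to 1166 CPM in hHKDC1 OE fat, and that of 5 proliferation markers from 19.3 to 26.8 CPM and from 29.1 to 101 CPM. Skeletal muscle markers varied from 562 to 24279 CPM over the fat libraries with no division by vector. Those of hepatocytes summed to 3705, 3897 and 9278 CPM in null and to 2805, 1765 and 2521 CPM in hHKDC1 OE fat, and those of keratinocytes to 16.3 to 266 CPM and 3.13 to 38.7 CPM. Adipocyte, endothelial and neutrophil marker sums ranged from 22430 to 30599, 876 to 1043 and 2.36 to 5.05 CPM in null and from 20496 to 28588, 689 to 1064 and 10.7 to 29.3 CPM in hHKDC1 OE fat. The part of these cells in the members' values was not tested.

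**Figure D3:**
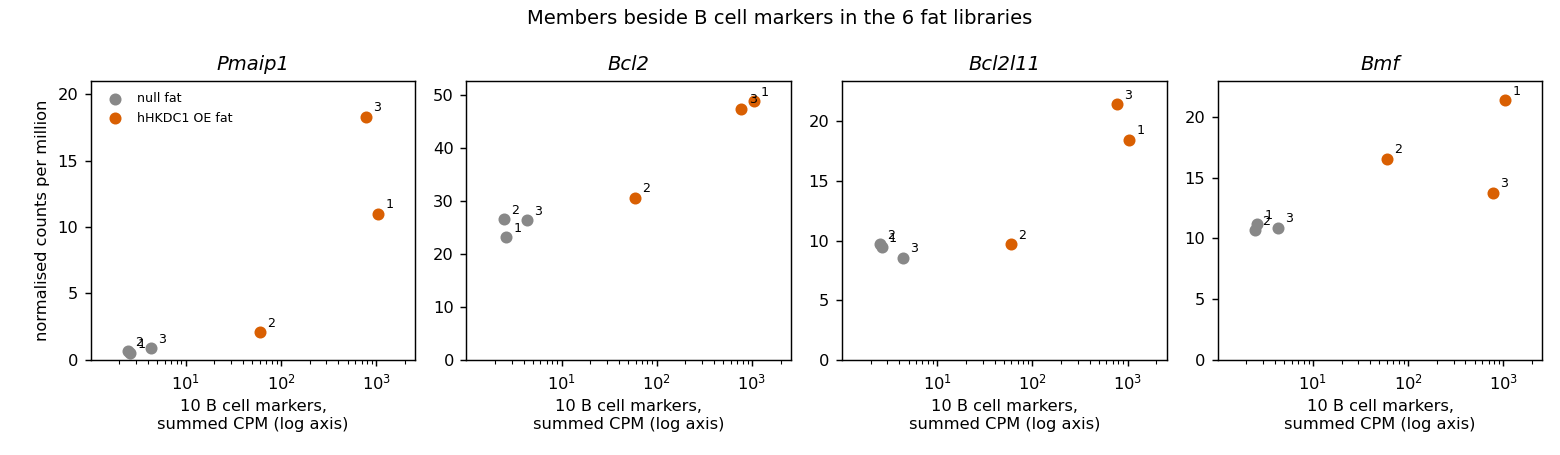
Normalised CPM of Pmaip1, Bcl2, Bcl2l11 and Bmf (linear axis) against the summed CPM of 10 B cell markers (log axis) in the 3 null (grey) and 3 hHKDC1 OE (orange) fat libraries, numbered by replicate. Replicate 2 of hHKDC1 OE lies between the other libraries on the marker axis at 59.5 CPM, near the null values for Bcl2 and Bcl2l11 and not for Bmf.

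Without hHKDC1 OE replicates 1 and 3, a choice made after seeing the marker sums, the remaining hHKDC1 OE library was set against the 3 null libraries and no gene passed. The log2 fold change was then 0.27 for Bcl2, 0.07 for Bcl2l11, -0.01 for Bax and -0.10 for Mcl1, while Bmf had 0.60 and Pmaip1 had 1.63. Bik was then at 0.56, Bak1 at 0.07, Bid at 0.04 and Bcl2l1 at -0.21. Without replicate 2, by contrast, 3251 genes and 4 members passed, namely Bcl2 (0.91, adjusted p = 0.0071), Bax (0.89, adjusted p = 0.0311), Bcl2l11 (1.10, adjusted p = 0.0124) and Pmaip1 (4.45, adjusted p = 0.0011), all by edgeR. The number of genes tested in this fit is not given here (it was 16380 with all 6 libraries). No exact share of all genes thus stands beside the 4 members. With all 6 libraries kept, Pmaip1 passed with DESeq2 (adjusted p = 1.9e-06), without the filter on low counts (0.0124 by edgeR) and with 12 libraries in 1 fit (0.023 by edgeR). Whether members passed in fat thus depended on this library and, for Pmaip1, also on the method.

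The other lists of the pathway were taken in the same way. Of the other BCL2 family genes, 10 of 13 could be tested in fat, 5 higher and 5 lower, and 3 were higher at an unadjusted p under 0.05. Bbc3 (PUMA), a BH3-only gene and p53 target, was at 5.72, 7.88 and 4.49 CPM in null and at 22.2, 13.0 and 13.1 CPM in hHKDC1 OE fat, a log2 fold change of 1.42 ± 0.33 (adjusted p = 0.134 by edgeR). For Bbc3, replicate 2 was as high as replicate 3. Bcl2a1d, a survival gene of blood cells with near-identical copies whose fragments may be shared, had 4, 3 and 9 counts in null and 270, 25 and 263 in hHKDC1 OE fat. Bcl2l14 had 1, 1 and 8 counts against 121, 14 and 78. Neither gene reached the count filter's minimum in any null library, so both were tested only because they were high in hHKDC1 OE fat. Without hHKDC1 OE replicates 1 and 3, Bbc3 was at 1.11 on the log2 scale and alone of these genes had an unadjusted p under 0.05. Bcl2l13, which shares 628 exonic bases with Bid on the other strand, was lower at 0.60 ± 0.19 below null on the log2 scale.

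Over all genes in this comparison, 46.1% lay above 0 and 17.7% had an unadjusted p under 0.05, 11.3% as higher. Among the genes downstream of the pores, 9 of 10 lay above 0 and none reached an unadjusted p of 0.05, with a range of log2 fold changes from -0.19 to 0.49. Of the 6 inhibitor of apoptosis genes, Birc3 (1.62 ± 0.43) and Naip5 (1.49 ± 0.44) had an unadjusted p under 0.05. Of 9 death receptor genes tested, 2 were higher at that level, Casp8 (0.61 ± 0.21) and the ligand Tnfsf10 (0.60 ± 0.18), and Ripk1 was lower (-0.35 ± 0.14). Trp53 itself was at 27.7, 22.9 and 24.5 CPM in null and 49.7, 30.6 and 54.7 CPM in hHKDC1 OE fat (0.85 ± 0.24, adjusted p = 0.155 by edgeR), while the other 8 genes of the p53 list were all below 0, Eda2r most (-1.26 ± 0.46). Without hHKDC1 OE replicates 1 and 3, the log2 fold change was 0.29 for Trp53, 0.33 for Birc3, 1.18 for Naip5, 0.43 for Casp8 and 0.44 for Tnfsf10, and no gene of these lists had an unadjusted p under 0.05. With all libraries, the list median was -0.56 for the p53 genes, 0.20 for the genes downstream of the pores, and -0.28 for the VDAC genes.

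In liver, where the promoter drives the transgene, again no gene passed with edgeR (0% of 13351 genes tested), with 6.94% at an unadjusted p under 0.05 and 94 genes by DESeq2, none of them a member. Here 9 members could be tested, 5 above and 4 below 0 (51.1% of all genes were above 0), with a median log2 fold change of 0.06 against 0.01 over all genes. The groups did not overlap for 1 member, Bcl2l1, as against 6.18% of all genes that were lower without overlap.

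Bcl2l1, the survival gene on which hepatocytes depend together with Mcl1, was at 38.5, 47.5 and 48.6 CPM in null liver and at 35.2, 30.9 and 31.6 CPM in hHKDC1 OE liver. All hHKDC1 OE libraries lay below the null libraries, as they did for the summed hepatocyte markers. This amounted to a log2 fold change of -0.46 ± 0.14 (unadjusted p = 0.010, adjusted p = 0.552 by edgeR), and it stayed between -0.56 and -0.40 under every alternative. Mcl1 was at 97.6, 92.5 and 94.6 CPM in null liver and at 118, 89.3 and 122 CPM in hHKDC1 OE liver, with groups that overlapped (0.21 ± 0.15). Bcl2 was at 1.24, 2.35 and 1.36 CPM against 0.676, 0.957 and 1.44 CPM, which came from 11 to 36 fragments per library (-0.67 ± 0.48).

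Bmf was the other member with an unadjusted p under 0.05 in liver. It was at 7.54, 5.60 and 7.01 CPM in null liver and at 21.9, 6.54 and 13.0 CPM in hHKDC1 OE liver. Replicate 2 lay within the null range, and so the groups overlapped. The log2 fold change was 1.03 ± 0.38 (unadjusted p = 0.0216, adjusted p = 0.618 by edgeR). Without the filter on low counts it passed (adjusted p = 0.0017 to 0.995 over the alternatives), as it did when replicate 2 of hHKDC1 OE was left out, with a log2 fold change of 1.37. Without replicate 1 of hHKDC1 OE it was 0.54 (adjusted p = 0.937 by edgeR).

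Bik had 0.76 ± 0.46, Bcl2l11 0.09 ± 0.20, Bax 0.06 ± 0.24, Bak1 -0.03 ± 0.26 and Bid -0.13 ± 0.16, none with separate groups. For Bik the libraries were at 0.988, 2.08 and 3.29 CPM in null and 5.10, 3.08 and 2.61 CPM in hHKDC1 OE liver. Pmaip1 was below the count filter in liver, with 0, 5 and 7 counts in null and 7, 6 and 9 in hHKDC1 OE. At these counts a small difference was not detectable. The B cell markers summed to 0.988 to 3.78 CPM in null and 1.81 to 3.44 CPM in hHKDC1 OE liver, with up to 6 of 10 at 0 in a library, and the lymphocyte sums thus did not divide by vector in liver.

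**Figure D4:**
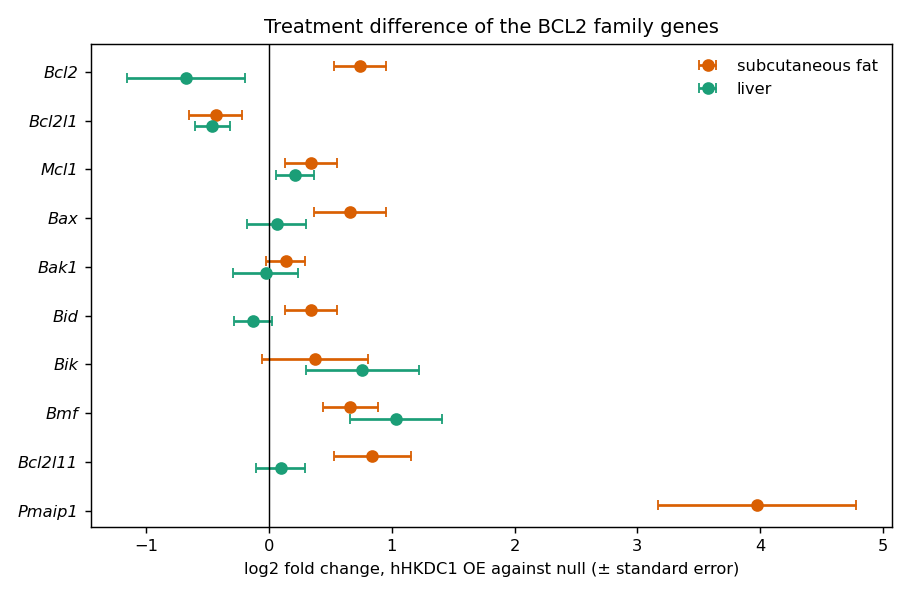
Log2 fold change of hHKDC1 OE against null (linear axis) with its standard error for each of the 10 genes, in subcutaneous fat (orange) and liver (green), from separate edgeR fits of 3 libraries against 3. Bcl2l1 lies near -0.4 in both tissues at -0.43 and -0.46, Pmaip1 has no liver value because its counts were below the filter, and no gene passed after adjustment.

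Of the other pathway genes in liver, Tnfrsf1a, the TNF receptor, was at 66.8, 59.1 and 57.8 CPM in null and 98.9, 75.8 and 87.9 CPM in hHKDC1 OE (0.52 ± 0.15, adjusted p = 0.520 by edgeR). Cdkn1a (p21), a p53 target that halts the cell cycle, had 104, 136 and 534 counts in null and 15, 50 and 32 in hHKDC1 OE liver (-3.18 ± 0.64, adjusted p = 0.355 by edgeR). Every hHKDC1 OE library was below every null library. Birc3 (0.62 ± 0.25) and Naip2 (0.62 ± 0.27) were higher at an unadjusted p under 0.05. None of the genes downstream of the pores, the other BCL2 family genes or the VDAC genes reached that level. Endothelial markers were at a summed level of 58.0 to 103 CPM in null and 35.3 to 66.7 CPM in hHKDC1 OE liver, and macrophage markers at 127 to 184 CPM and 183 to 331 CPM. The hepatocyte marker sum, at 113617 to 119535 CPM in null and 70219 to 93049 CPM in hHKDC1 OE liver, divided by vector without overlap, as did 3 of its 10 markers, all lower. The part of these cells in the values was not tested.

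Whether the vector effect differed between fat and liver was asked with an interaction term fitted to all 12 libraries. None of 17070 genes passed (0%) with edgeR, 12.7% had an unadjusted p under 0.05, and DESeq2 passed 497 genes with no member among them. Of the 10 members, 4 had an unadjusted p under 0.05, all more positive in fat, as against 9% of all genes in that direction. All 10 B cell and all 10 T cell markers were more positive in fat too, 9 of each at that level. The part of these cells was not tested, and no interaction without fat hHKDC1 OE replicates 1 and 3 is given. Pmaip1 is 1 of the 4 members, and it was tested only because of its counts in hHKDC1 OE fat. Bcl2 differed by 1.49 ± 0.44 (adjusted p = 0.189), Pmaip1 by 3.36 ± 1.26 (0.294), Bcl2l11 by 0.83 ± 0.38 (0.394) and Bid by 0.55 ± 0.25 (0.385). For Bcl2l1 the difference was 0.10 ± 0.26 and for Bmf -0.30 ± 0.50. Since none passed, no member is shown to respond differently in the tissues.

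The balance of the family within each library was described by ratios of FPKM, with no test. The summed FPKM of the 3 survival genes over that of the 7 death-promoting genes was 2.76, 2.66 and 2.30 in null fat, whereas the hHKDC1 OE fat libraries stood at 1.91, 2.19 and 2.09. The groups did not overlap, although the gap between 2.30 and 2.19 was narrow. In liver the ratio was 2.40, 1.67 and 1.77 in null and 1.60, 1.55 and 2.26 in hHKDC1 OE, which overlapped. Mcl1 made up 71.8% to 86.4% of the survival FPKM in every library. The summed FPKM of the death-promoting genes was 21.2, 22.1 and 24.8 in null fat, against 36.1, 25.1 and 35.5 in hHKDC1 OE fat.

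The ratio of Mcl1 to Bcl2l1 was 3.40, 2.61 and 2.61 in null liver and 4.50, 3.88 and 5.18 in hHKDC1 OE liver, without overlap. In fat it was 5.89, 3.78 and 3.08 in null and 7.42, 4.36 and 9.83 in hHKDC1 OE, where the groups overlapped. The ratio of Bcl2 to Bax ran from 0.214 to 0.266 over the null fat libraries and from 0.225 to 0.297 over the hHKDC1 OE fat libraries. These ranges overlapped, with Bcl2 and Bax both highest in hHKDC1 OE replicates 1 and 3.

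**Figure D5:**
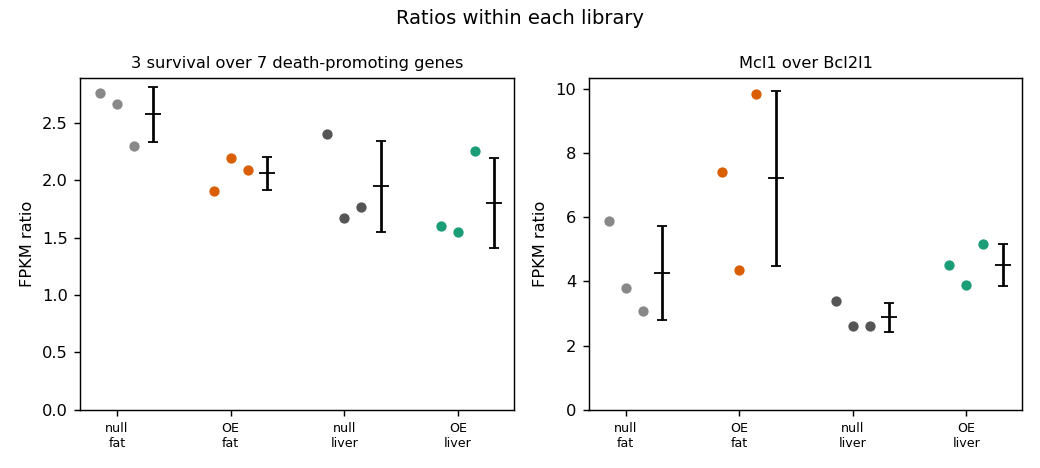
Ratios of deposited FPKM within each of the 12 libraries (linear axes from 0), with the mean ± SD (n = 3) beside each group: the sum of 3 survival genes over the sum of 7 death-promoting genes (left) and Mcl1 over Bcl2l1 (right). The left ratio separates in fat, 2.30 to 2.76 against 1.91 to 2.19, and the right ratio separates in liver, 2.61 to 3.40 against 3.88 to 5.18.

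The gene whose log2 CPM ran most like that of each member over the 12 libraries was named by Pearson's r as a description. The libraries share 2 tissues, so for a member that differs between fat and liver, any gene that differs likewise scores high. Pmaip1 instead had its highest counts in the hHKDC1 OE fat libraries. Pmaip1 was most like Prkcb (r = 0.972), which encodes protein kinase C beta, a kinase of B cell receptor signalling. Bcl2 was most like Kbtbd11 (0.991), Bid like Cmah (0.977), Bcl2l11 like Rps20 (0.964), Bak1 like Fgfbp3 (0.961), Mcl1 like Chil3 (0.954), Bik like Gm48840 (0.928), Bax like Gm15710 (0.926), Bcl2l1 like Xpnpep3 (0.883) and Bmf like Erp29 (0.844).

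Positions in the count table are those of GRCm38. Bcl2 lies at chr1:106538178-106714274, Bcl2l1 at chr2:152780668-152831728, Bmf at chr2:118528757-118549687 and Bcl2l11 at chr2:128126038-128162547. Because the counting took no account of strand, fragments in shared exons cannot be assigned to one gene. Bcl2 shares 558 exonic bases with the antisense gene D630008O14Rik, Bak1 177 and 437 with 2 entries of Ggnbp1, Bid 628 with Bcl2l13, and Bax 192 with Gm45808 on its own strand. The counts of these 4 members are uncertain to that extent.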

How the data were processed

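RNA was sequenced from subcutaneous fat and liver, with 3 libraries per tissue and vector. Per the submitters' processing notes, the authors used STAR 2.5 and HTSeq 0.6.1 with DESeq2. The study's methods describe libraries without strand information and name the human genome, but all identifiers are mouse genes, of which 99.8% are in GENCODE mouse release M21 and 98.1% have the same GRCm38 position there. The authors deposited unnormalised fragment counts per gene. The authors also deposited FPKM, and 100% of the 252371 FPKM values above 0 could be recomputed within 1% using counts, gene lengths and size factors of DESeq2 from all 12 libraries. The authors' tables of fold changes and p-values were not used, nor were their group means of FPKM.

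Counts were fitted with edgeR 4.0.16 (glmQLFit, glmQLFTest) in R 4.3.3 with TMM normalization, filterByExpr and Benjamini-Hochberg adjustment over all genes tested, called at an adjusted p under 0.05. Fat, liver and the null libraries were fitted apart, and the interaction over all 12 libraries, with no term for the replicate number. CPM were scaled by TMM within each fit. The standard error is the absolute log2 fold change over the square root of F. Exact permutation tests of 3 against 3 libraries were two-sided. Correlations used log2 CPM with a prior count of 2. Alternatives were DESeq2 1.42.0, its size factors in edgeR, library size alone, no filter, 12 libraries in 1 fit, a replicate block and leaving out each library. The code was tested on simulated data. No library was close to being a copy of another, with a chi-square per gene between replicates of 21.8 to 173. The 10 members, the pathway genes and the marker lists were chosen with earlier results of these data known. Some genes of these lists are counted but not reported by name here. Named are all members, other pathway genes where their list is described, mouse Hkdc1, and for each member the gene with the highest correlation.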

Additional observations from a re-analysis of the deposited data

How the results depend on the processing

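Of 525 alternative values of members' log2 fold changes, 481 kept their direction and side of the threshold, 10 lost a call, 11 gained one in the same direction and 23 changed sign, of which Bcl2l1 and Bmf by library size alone also passed. In fat, where no gene passed, DESeq2 passed 1446 genes (1253 higher, 193 lower) and 1 member, no filter 803 and 1, and 12 libraries in 1 fit 876 and 1. Leaving out 1 library gave 0 to 3251 genes and 0 to 4 members, both highest without hHKDC1 OE replicate 2, and 2 genes without null replicate 3. Without hHKDC1 OE replicates 1 and 3, Mcl1 was at -0.0985 and Bax at -0.00799. In liver, DESeq2 passed 94 genes, library size alone 2, and no filter 327 with 1 member, Bmf. Leaving out 1 library gave 0 to 146 genes and 0 to 1 member, both highest without hHKDC1 OE replicate 2. Bak1 in liver was at 0.0313 by library size alone and ranged from -0.28 to 0.16 with 1 library left out, and Bax from -0.11 to 0.27. For null fat against null liver, library size alone passed 5 members and put 4 above 0, Bcl2l1 at 0.58 and Bmf at 0.66, which passed, and Bax at 0.45 and Bcl2l11 at 0.50, which did not. The share of all genes that passed under that scaling is not given. In the interaction, DESeq2 passed 497 genes, no filter 479, and leaving out 1 library 0 to 1211, the highest without fat hHKDC1 OE replicate 2. There, leaving out 1 library moved Bcl2l1 from -0.24 to 0.19, Mcl1 from -0.0853 to 0.30, Bak1 from -0.0154 to 0.48, Bik from -0.78 to 0.0236 and Bmf from -0.65 to 0.20. Where leaving out a library left 1 in a group, it was assumed to vary like the others. The cause of these changes was not tested.

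No pairing by replicate number was seen across the groups as a whole. Whether same-numbered null fat and null liver libraries share a mouse is not settled. Deviations of same-numbered libraries correlated from -0.11 to 0.02 between the fat groups from 0.04 to 0.19 between the liver groups, from 0.02 to 0.21 between null fat and null liver, and from -0.0023 to 0.05 between hHKDC1 OE fat and liver. Of 24 checks of 1 library against 3, 11 were best with their own number, among them all null fat libraries against null liver. With the replicate block, 168 genes passed in fat, 17 in liver and 0 in the interaction, and no member gained or lost a call. With it, Bak1 in liver was at 0.0233.

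Depth limited Pmaip1 in liver and null fat, Bcl2 in liver and Bik in all groups. A count of 0 allows up to 3 counts, for counting error only.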
